A study of Mus musculus with 12 samples.

Results

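The insulin-like growth factor (IGF) family described here comprises 10 genes: the ligands Igf1 and Igf2, the receptors Igf1r and Igf2r, and the binding protein genes Igfbp2, Igfbp3, Igfbp4, Igfbp5, Igfbp6 and Igfbp7. They were selected by gene symbol among 21789 transcript clusters to which the array annotation gives exactly 1 symbol, and each of the 10 genes was read by 1 cluster. The family was proposed with its response to PDGF-AA already known, so its values with and without PDGF-AA are given as a description and carry no test. Differences between antisense oligonucleotides, averaged over both PDGF-AA doses, were tested across all 21789 clusters. Differences at a single dose share arrays with the PDGF-AA differences that were already known. For the members the adjusted p of these single-dose differences is a description and carries no test.

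The cells were fibro/adipogenic progenitors (FAPs), resident mesenchymal cells of skeletal muscle that give rise to fibroblasts and adipocytes. They came from uninjured hindlimb muscle of wild-type male C57Bl/6 mice aged 8 to 12 weeks, and each biological replicate pooled cells of 2 mice. An antisense oligonucleotide (AMO) at 10 µM was transfected for 48 hours and again for a further 48 hours, the second time with PDGF-AA, which the labels give as 50 uM, or without it. The series concerns intronic polyadenylation of transcripts of the PDGF receptor alpha, and 2 of the AMOs were directed at those transcripts. The 6 groups were pA AMO (directed at the intronic polyadenylation site) with PDGF-AA and without it, 5'ss AMO (directed at an intronic 5' splice site) with PDGF-AA and without it, and control AMO with PDGF-AA and without it. Each group had 2 arrays, numbered replicate 1 and replicate 2, and all groups share the mouse strain, the culture steps and an AMO transfection. No label says whether equal numbers mark the same pool of mice.

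IGF1 and IGF2 are secreted peptides that signal through the receptor tyrosine kinase IGF1R, while IGF2R, the cation-independent mannose 6-phosphate receptor, takes up IGF2 and delivers it for degradation. The IGF-binding proteins hold IGFs in extracellular fluid and matrix and set how much of the ligand can reach its receptor, and proteases such as pappalysin release it again. In skeletal muscle IGF1 is known as a growth and repair signal for muscle fibres, supplied partly by connective tissue cells.

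Values are log2 expression, so that a difference of 1 is a doubling. Markers of the labelled cell type were high: 7 of 8 FAP and fibroblast markers were measured, their mean per array lay between 11.66 and 11.83, and Pdgfra lay between 12.72 and 12.92. The means of the endothelial markers (6.35 to 6.60) and of the smooth muscle and pericyte markers (5.69 to 5.94) varied by about as much as that of the macrophage and leukocyte markers, while the myogenic and adipocyte means varied more. The mean of the 10 myogenic markers spanned 6.52 to 7.73, with Des at 7.24 to 9.08 and Myh3 at 7.20 to 9.15. Levels within that list differed, since Myf5 (4.41 to 5.12) and Pax7 (6.21 to 6.87) were lower, while Actc1 was at 7.57 to 9.33. All 7 genes of the macrophage and leukocyte list were measured, with a mean of 5.66 to 5.91 per array. Of these genes Ptprc (4.75 to 5.35), Adgre1 (3.89 to 4.51), Itgam (4.86 to 5.38) and Csf1r (5.55 to 5.88) lay below the median cluster of every array. The lowest of those medians was 6.04 and the highest 6.23. Cd68 (7.08 to 7.44) and Cd14 (6.55 to 7.06) lay above all of the medians, and Lyz2 spanned 5.86 to 7.48. The mean of the 8 adipocyte markers was 9.54 on replicate 1 of 5'ss AMO with PDGF-AA, with Adipoq at 9.31 there. That mean was 7.38 to 8.09 on the other arrays of replicate 1 and 8.64 to 9.08 on the arrays of replicate 2, so it also differed by replicate number. The main differences that rest on this array are given with and without it. In these bulk samples fewer cells of a type and less RNA per cell cannot be told apart.

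**Figure D1:**
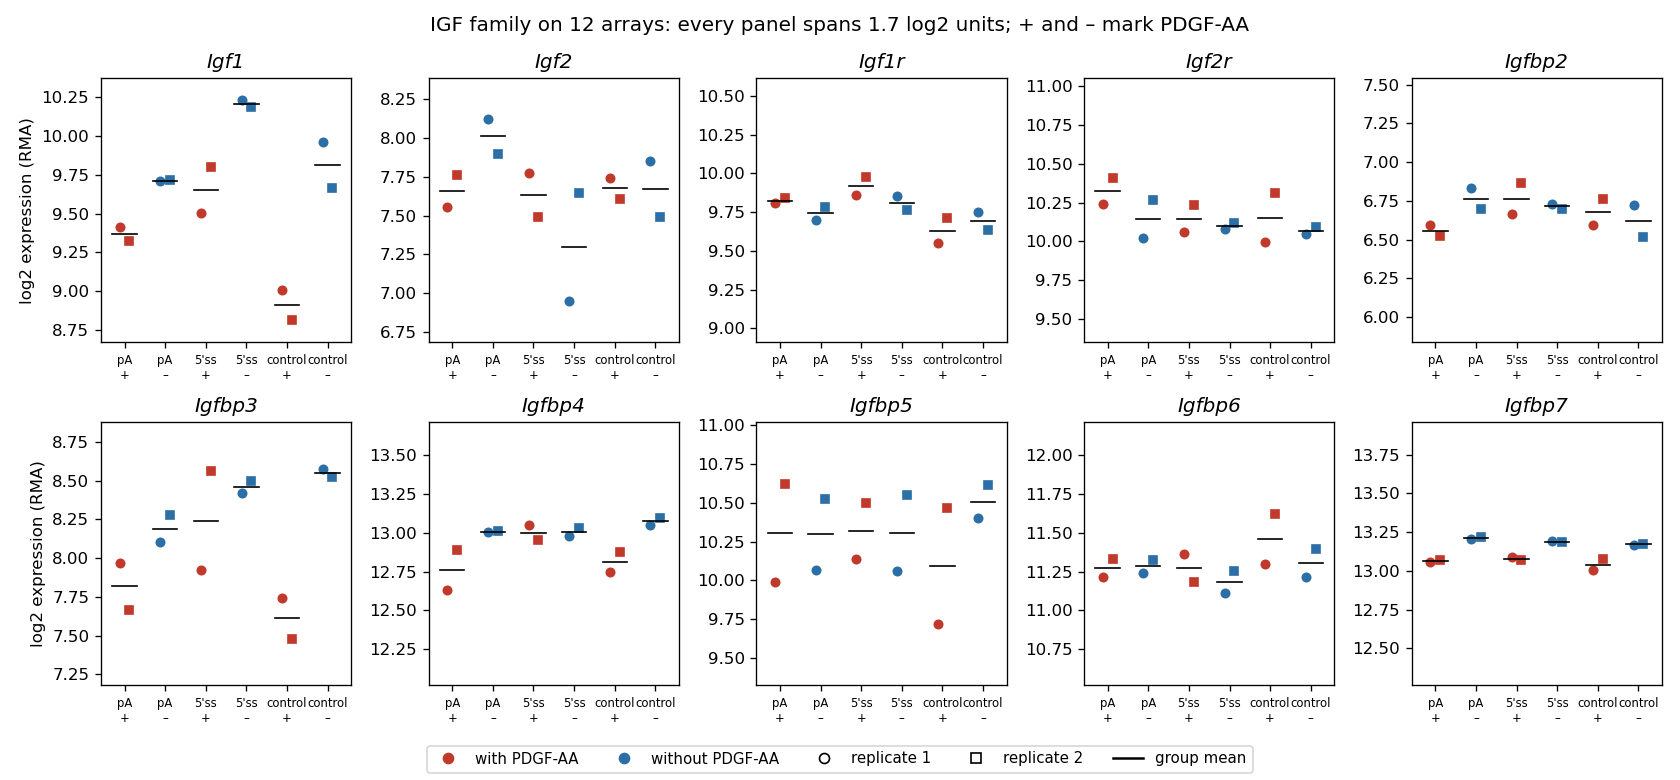
Log2 expression (y axis, RMA values) of the 10 IGF family genes in the 6 groups (x axis, + with and – without PDGF-AA). Circles are replicate 1, squares are replicate 2, bars are group means, and every panel spans the same log2 range. Igf1 and Igfbp3 are lowest in control AMO with PDGF-AA, at 8.81 and 9.01 for Igf1 and at 7.48 and 7.74 for Igfbp3, and Igfbp5 is higher on replicate 2 in every group.

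Igf1 and Igfbp3 had the largest PDGF-AA differences of the 10 genes, both lower with PDGF-AA, and the upstream sequence of each is shown because their values were alike across the arrays. Each line gives the 150 bases upstream of the RefSeq transcript start on the coding strand, from 5′ to 3′, in build GRCm38.p6. Capitals mark matches to any of 7 short motifs searched on both strands, which were the TATA box (TATAAA), the CCAAT box (CCAAT), the GC box (GGGCGG), a STAT site (TTCNNNGAA), an AP-1 site (TGANTCA), a FOXO site (TGTTTAC) and the hypoxia response core (ACGTG).
Igf1, chr10:87860961-87861110, plus strand: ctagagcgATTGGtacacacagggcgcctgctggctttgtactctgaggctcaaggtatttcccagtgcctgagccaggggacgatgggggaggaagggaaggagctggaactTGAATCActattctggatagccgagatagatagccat
Igfbp3, chr11:7213924-7214073, minus strand: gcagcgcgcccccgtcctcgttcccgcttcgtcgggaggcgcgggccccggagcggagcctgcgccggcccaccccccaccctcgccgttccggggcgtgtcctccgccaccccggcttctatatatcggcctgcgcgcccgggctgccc
The Igf1 sequence holds the CCAAT box on the reverse strand and a match to the AP-1 site, which do not overlap and whose first printed bases lie 142 and 37 bases before the start. Among 32851 RefSeq promoters, 33.8% hold the CCAAT box and 6.75% the AP-1 site in the 250 bases before the start. Within its own 250 bases Igfbp3 held no match to the 7 motifs, which says only that these letters are not in that window. The sequences differ in base composition, with 54.0% G and C for Igf1 and 78.7% for Igfbp3. Of the other members, the promoter of Igfbp2 also holds an AP-1 match.

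Igf1, the ligand of the growth and repair pathway, was lower with PDGF-AA on both arrays of every AMO. With pA AMO it was at 9.41 and 9.32 with PDGF-AA, against 9.71 and 9.71 without it. With 5'ss AMO it was at 9.50 and 9.80 with PDGF-AA, against 10.23 and 10.19 without it. With control AMO it was at 9.01 and 8.81 with PDGF-AA, against 9.96 and 9.66 without it. Within each AMO the arrays with PDGF-AA all lay below those without, but pooled over AMOs the groups overlapped, since 5'ss AMO with PDGF-AA reached levels seen in the other AMOs without it. The log2 differences were -0.34 with pA AMO, -0.56 with 5'ss AMO and -0.90 with control AMO. Averaged over AMOs the difference was -0.60 (SE 0.077), or -34.1% in linear signal, and it was -0.55 without the array high in adipocyte markers, whose omission left -0.41 within 5'ss AMO. Ordered by group mean, Igf1 was highest in 5'ss AMO without PDGF-AA (10.21), followed by control AMO without (9.81), pA AMO without (9.71), 5'ss AMO with (9.65), pA AMO with (9.37) and control AMO with PDGF-AA (8.91). In that order pA AMO without PDGF-AA overlapped both of its neighbours, while the other neighbours did not overlap.

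Igfbp3 encodes the main IGF carrier in blood. With pA AMO it was at 7.97 and 7.67 with PDGF-AA, against 8.10 and 8.28 without it. With 5'ss AMO it was at 7.92 and 8.56 with PDGF-AA, against 8.42 and 8.50 without it. With control AMO it was at 7.74 and 7.48 with PDGF-AA, against 8.58 and 8.52 without it. The groups were apart with pA AMO and control AMO and overlapped with 5'ss AMO, where replicate 2 with PDGF-AA was above both arrays without it. The log2 differences were -0.37 with pA AMO, -0.22 with 5'ss AMO and -0.94 with control AMO, and -0.51 (SE 0.111) averaged over AMOs, or -29.7% in linear signal. The average was -0.40 without replicate 1 of 5'ss AMO with PDGF-AA, the array high in adipocyte markers, and -0.62 without replicate 2 of that group. Within 5'ss AMO the difference was 0.10 without that replicate 1 and -0.54 without that replicate 2, so its direction there rested on a single array. By group mean the order was control AMO without PDGF-AA (8.55), 5'ss AMO without (8.46), 5'ss AMO with (8.24), pA AMO without (8.19), pA AMO with (7.82) and control AMO with PDGF-AA (7.61). Control AMO without PDGF-AA did not overlap its neighbour 5'ss AMO without, nor did pA AMO without overlap pA AMO with PDGF-AA, while every other pair of neighbours overlapped.

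**Figure D2:**
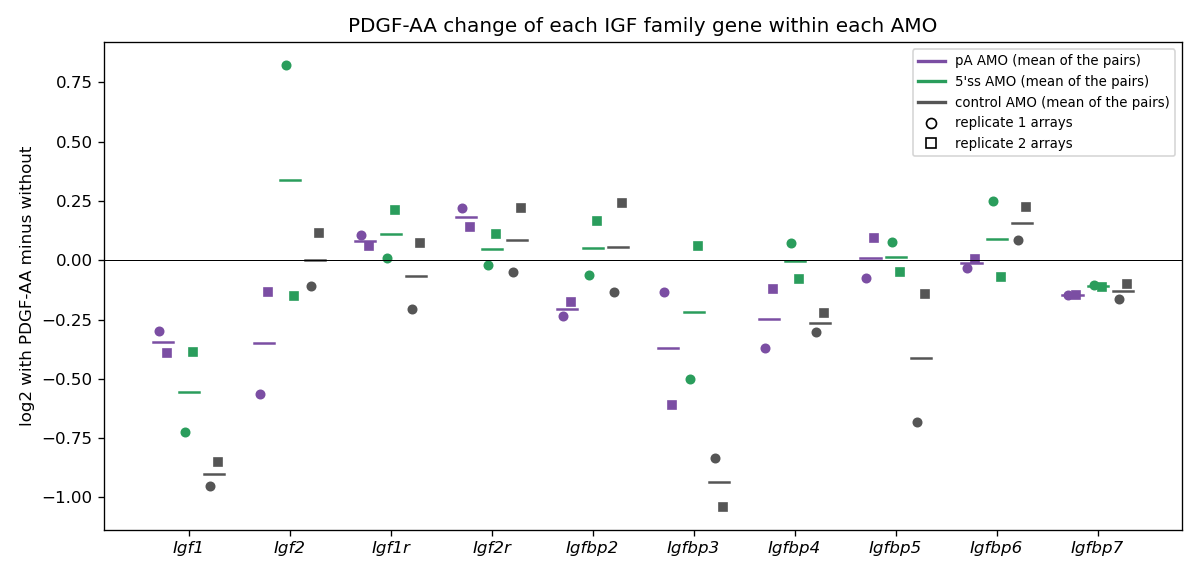
Log2 difference with PDGF-AA minus without (y axis) for each gene (x axis) within pA, 5'ss and control AMO. Circles and squares are the differences between arrays of replicate number 1 and 2, and bars are their means. Igf1 lies below 0 in all 6 pairs of arrays, Igfbp3 in 5 of 6 and Igfbp7 in all 6 by a small amount, while Igf2 ranges on both sides of 0.

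Igfbp7 encodes a secreted protein with weak affinity for IGFs that also binds other ligands. Over the 6 arrays with PDGF-AA its lowest, median and highest values were 13.00, 13.07 and 13.09, against 13.17, 13.19 and 13.22 over the 6 without. The ranges did not overlap, although the difference was -0.13 (SE 0.049), and it was -0.15 with pA AMO, -0.11 with 5'ss AMO and -0.13 with control AMO. Igfbp7 varied little otherwise: its SD over the 12 arrays was 0.0714, above that of 8.28% of all clusters, against 0.429 for Igf1, above that of 99.6%. It was the only member whose arrays with PDGF-AA were all apart from those without. Over all clusters this held for 61, or 0.28%, and since the family was proposed from this contrast nothing is read from its count.

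Igfbp4 encodes the binding protein that pappalysin cleaves. With pA AMO it was at 12.63 and 12.89 with PDGF-AA, against 13.01 and 13.01 without it. With 5'ss AMO it was at 13.05 and 12.95 with PDGF-AA, against 12.98 and 13.03 without it. With control AMO it was at 12.75 and 12.88 with PDGF-AA, against 13.05 and 13.10 without it. The arrays with PDGF-AA were lower with pA AMO (-0.25) and with control AMO (-0.26) and overlapped the others with 5'ss AMO (-0.0036). The average over AMOs was -0.17 (SE 0.063).

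The other 6 genes lay between -0.13 and 0.10 with PDGF-AA when averaged over AMOs. Igfbp5, a matrix-bound binding protein gene, was at -0.13 (SE 0.168), and Igfbp6, whose product prefers IGF2, was at 0.08. Igf1r was at 0.04 and Igf2r at 0.10, while Igfbp2 was at -0.03 and Igf2 at -0.0037. Igf2 varied between AMOs, with -0.35 in pA AMO, 0.34 in 5'ss AMO and 0.0031 in control AMO. The value in 5'ss AMO rested on replicate 1 without PDGF-AA, whose level of 6.95 was the lowest of all 12 arrays, and it was -0.013 without that array.

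Over the 10 genes, 3 were above 0 and 7 below 0 with PDGF-AA, with a median of -0.081, against a median of 0.0014 over all clusters, of which 50.8% were above 0. In the limma fit 0 of 21789 clusters passed an adjusted p of 0.05 (0% called), and 738 had an unadjusted p under 0.05. With the replicate number as a block 21 clusters passed (0.0964%), and with trended and robust moderation 39 passed (0.179%), or 13 (0.0597%) within control AMO. These counts are over the whole array and describe the background only. Within single AMOs the arrays with and without PDGF-AA were apart for 7 members with pA AMO, 3 with 5'ss AMO and 4 with control AMO. Among all clusters the shares were 23.7% with pA AMO, 19.6% with 5'ss AMO and 31% with control AMO.

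Cell type markers were set beside these differences. The myogenic mean was 6.85 to 7.37 with PDGF-AA (median 7.02), against 6.52 to 7.73 without it (median 7.09). The adipocyte mean was 7.38 to 9.54 with PDGF-AA, against 7.81 to 9.08 without it. The macrophage and leukocyte mean was 5.66 to 5.88 with PDGF-AA, against 5.80 to 5.91 without it, and Cd14, a receptor of that list, was at -0.26 (SE 0.062) with ranges that did not overlap. Of the 7 measured genes of that list, 4 were above 0 and 3 below 0 with PDGF-AA, with a median of 0.0056. The ranges of all 3 means overlapped, and their part in the IGF family's values was not tested.

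The 5'ss AMO was compared with control AMO to ask how the family differs when the splice site of the receptor transcript is targeted. Igf1 was higher with 5'ss AMO at each PDGF-AA dose, with no overlap at either. Control AMO with PDGF-AA, where Igf1 and Igfbp3 were lowest, also enters the PDGF-AA difference known beforehand. The adjusted p of a member at a single dose is therefore a description only. With PDGF-AA it was at 9.50 and 9.80 in 5'ss AMO, against 9.01 and 8.81 in control AMO. That difference was 0.74 (SE 0.134, limma adjusted p = 0.281, or 0.0817 with the replicate block). Without PDGF-AA Igf1 was at 10.23 and 10.19 in 5'ss AMO, against 9.96 and 9.66 in control AMO, a difference of 0.40 (SE 0.134, limma adjusted p = 1.0). Averaged over both doses, Igf1 was at 9.93 with 5'ss AMO, against 9.36 with control AMO. That difference of 0.57 (SE 0.095) did not pass the threshold, with an adjusted p of 0.357 in limma and 0.118 with the replicate block. It passed only where the moderation of variances used an intensity trend and robust estimates, with an adjusted p of 0.0298, and its adjusted p over leaving out each array in turn was 0.371 to 0.992. Without the array high in adipocyte markers the difference was 0.64 averaged over doses and 0.89 with PDGF-AA.

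Igf1r, the signalling receptor, lay between 9.76 and 9.98 on the 4 arrays of 5'ss AMO, against 9.55 and 9.75 at the lowest and highest of the 4 arrays of control AMO. The ranges did not overlap. The difference of 0.20 (SE 0.072) had an adjusted p of 0.995 in limma and 0.278 with the replicate block. Without the array high in adipocyte markers the difference was 0.23. Among all clusters 647, or 2.97%, had arrays of these AMOs apart, and Igf1r was the only member among them. Igfbp3 was higher with 5'ss AMO by 0.63 (SE 0.192) in the presence of PDGF-AA, at 7.92 and 8.56 against 7.74 and 7.48 in control AMO. The adjusted p of this difference was 0.794 in limma and 0.201 with the replicate block. This difference was 0.31 without replicate 2 and 0.95 without replicate 1 of 5'ss AMO with PDGF-AA. Without PDGF-AA Igfbp3 was at 8.42 and 8.50 in 5'ss AMO, against 8.58 and 8.52 in control AMO, a difference of -0.09. Averaged over doses Igfbp3 differed by 0.27 and Igf2 by -0.21, each with an adjusted p of 0.995. Without the array high in adipocyte markers these were 0.43 for Igfbp3 and -0.28 for Igf2.

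**Figure D3:**
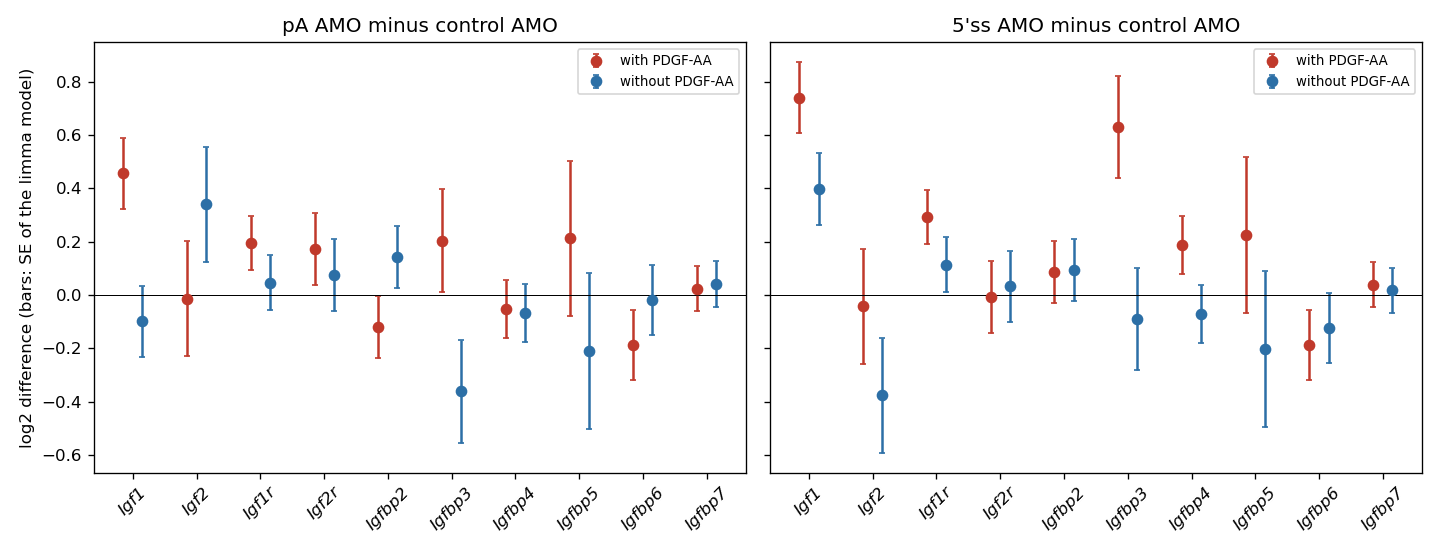
Log2 difference (y axis) of pA AMO minus control AMO (left) and 5'ss AMO minus control AMO (right) for each gene (x axis), with PDGF-AA in red and without in blue. Points are differences of group means of 2 arrays and bars are the SE of the limma model. With 5'ss AMO Igf1 is the farthest above 0 at each dose, at 0.74 with and 0.40 without PDGF-AA, and no point passed an adjusted p of 0.05 in limma.

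Averaged over doses, 8 of the 10 members were higher with 5'ss AMO, with a median of 0.044, against -0.0084 over all clusters, of which 46.6% were above 0. In limma 0 of 21789 clusters passed (0% called), while 1046 had an unadjusted p under 0.05. With the replicate block 3 passed (0.0138%), none of them a member. With trended and robust moderation 7 passed (0.0321%), Igf1 among them. For each dose by itself 0 of 21789 passed in limma. There the replicate block gave 22 clusters with PDGF-AA and 1 without it, none of them a member. Trended and robust moderation gave 6 with PDGF-AA, none of them a member, and 0 without it. At single doses the arrays of 5'ss AMO and control AMO were apart for 4 members with PDGF-AA and 5 without it, against 30.2% of all clusters with PDGF-AA and 23.6% without it. Among markers, Lyz2, a lysozyme gene of myeloid cells, was at 0.56 (SE 0.139, limma adjusted p = 0.730) in the same comparison, and at 0.71 without the array high in adipocyte markers. The macrophage and leukocyte mean was 5.78 to 5.91 with 5'ss AMO, against 5.66 to 5.87 with control AMO, and 2 of its 7 measured genes were higher. The adipocyte mean was 7.81 to 9.54 with 5'ss AMO, against 7.38 to 9.08 with control AMO. The part of these markers in the Igf1 difference was not tested.

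The pA AMO was compared with the same control AMO arrays, so its differences and those of 5'ss AMO are not independent. At a single dose the adjusted p of a member is likewise a description only. Igf1 with PDGF-AA was at 9.41 and 9.32 in pA AMO, against 9.01 and 8.81 in control AMO. These arrays did not overlap, and the difference of 0.46 (SE 0.134) had an adjusted p of 0.950 in limma and 0.235 with the replicate block. Without PDGF-AA Igf1 was at 9.71 and 9.71 in pA AMO, against 9.96 and 9.66 in control AMO, and these overlapped, with a difference of -0.10 that was 0.050 when replicate 1 of control AMO without PDGF-AA was left out. Averaged over doses Igf1 was at 0.18 and Igfbp3 at -0.08, and the median of the 10 members was 0.023, with 7 above 0. At single doses 2 members with PDGF-AA and 4 without it had arrays of pA AMO and control AMO apart, against 31.5% of all clusters with PDGF-AA and 22.8% without it. Over both doses none of the 10 had arrays of pA AMO apart from those of control AMO, against 2.65% of all clusters, and 0 of 21789 passed in limma (0% called, with 708 at an unadjusted p under 0.05) or with the replicate block. Between pA AMO and 5'ss AMO directly, Igf1 was at -0.39, Igfbp3 at -0.35 and Igf2 at 0.37. Without the array high in adipocyte markers Igf1 was at -0.46, Igfbp3 at -0.51 and Igf2 at 0.44. With all arrays their adjusted p was 1.0 in limma and 0.261 to 0.556 with the replicate block, where 6 clusters passed (0.0275%), none of them a member.

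Whether the PDGF-AA difference itself changed with the AMO is described by interaction terms in limma. These terms are built from the PDGF-AA differences that were known when the family was proposed, so they carry no test of its members. For Igf1 the PDGF-AA difference was less negative than in control AMO by 0.56 (SE 0.189) in pA AMO and by 0.34 in 5'ss AMO. For Igfbp3 the same terms were 0.57 (SE 0.272) in pA AMO and 0.72 (SE 0.272) in 5'ss AMO. For Igf2 the term between pA AMO and 5'ss AMO was -0.69 (SE 0.306). Without the array high in adipocyte markers the terms with 5'ss AMO were 0.49 for Igf1, 1.04 for Igfbp3 and -0.55 for Igf2. None of these passed the threshold, and the adjusted p of every member in these 3 comparisons was at least 0.9996 in limma. With the replicate block it was at least 0.494. In limma 0 of 21789 clusters were called (0%) in each comparison, with 418 to 643 at an unadjusted p under 0.05. The smaller PDGF-AA differences of Igf1 under both targeted AMOs are thus a description only. No verdict is drawn from their adjusted p over 21789 clusters. That adjusted p does not by itself measure the spread of Igf1 between arrays.

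Igfbp5 followed the replicate number. In pA AMO it was at 10.62 on replicate 2 and 9.99 on replicate 1 with PDGF-AA, and at 10.53 on replicate 2 and 10.07 on replicate 1 without it. In 5'ss AMO it was at 10.50 on replicate 2 and 10.14 on replicate 1 with PDGF-AA, and at 10.55 on replicate 2 and 10.06 on replicate 1 without it. In control AMO it was at 10.47 on replicate 2 and 9.72 on replicate 1 with PDGF-AA, and at 10.61 on replicate 2 and 10.40 on replicate 1 without it. Replicate 2 was higher in 6 of 6 groups and every array of replicate 2 lay above every array of replicate 1. The difference was 0.48 (SE 0.069), with an adjusted p of 0.00576 in a limma fit with group and replicate number. Across the 12 arrays the Pearson correlation of Igfbp5 was 0.70 with the adipocyte mean and 0.66 with the FAP and fibroblast mean. The adipocyte mean was also higher on replicate 2 in every group except 5'ss AMO with PDGF-AA, and the part of these markers was not tested. Igf2r, the clearance receptor for IGF2, was also higher on replicate 2 in 6 of 6 groups, by 0.17 (SE 0.050, limma adjusted p = 0.0338). The other 8 members did not pass, while 7013 clusters passed over the whole array, or 32.2%, so that 2 of 10 members is no more than the share of all clusters. This comparison was added after the values were seen.

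Igf2, a fetal growth factor gene expressed from the paternal allele, tracked the myogenic markers across arrays. Its Pearson correlation with the mean of the 10 myogenic markers was 0.75 over the 12 arrays. Replicate 1 of pA AMO without PDGF-AA was highest in both, with Igf2 at 8.12 and the marker mean at 7.73. The array lowest in Igf2, replicate 1 of 5'ss AMO in the absence of PDGF-AA, was at 6.95 and had a marker mean of 6.70, above only the 6.52 of replicate 2 of control AMO without PDGF-AA. The arrays share groups and replicate numbers, so the correlation is a description only. It was not tested whether muscle cells in the cultures account for the Igf2 values.

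**Figure D4:**
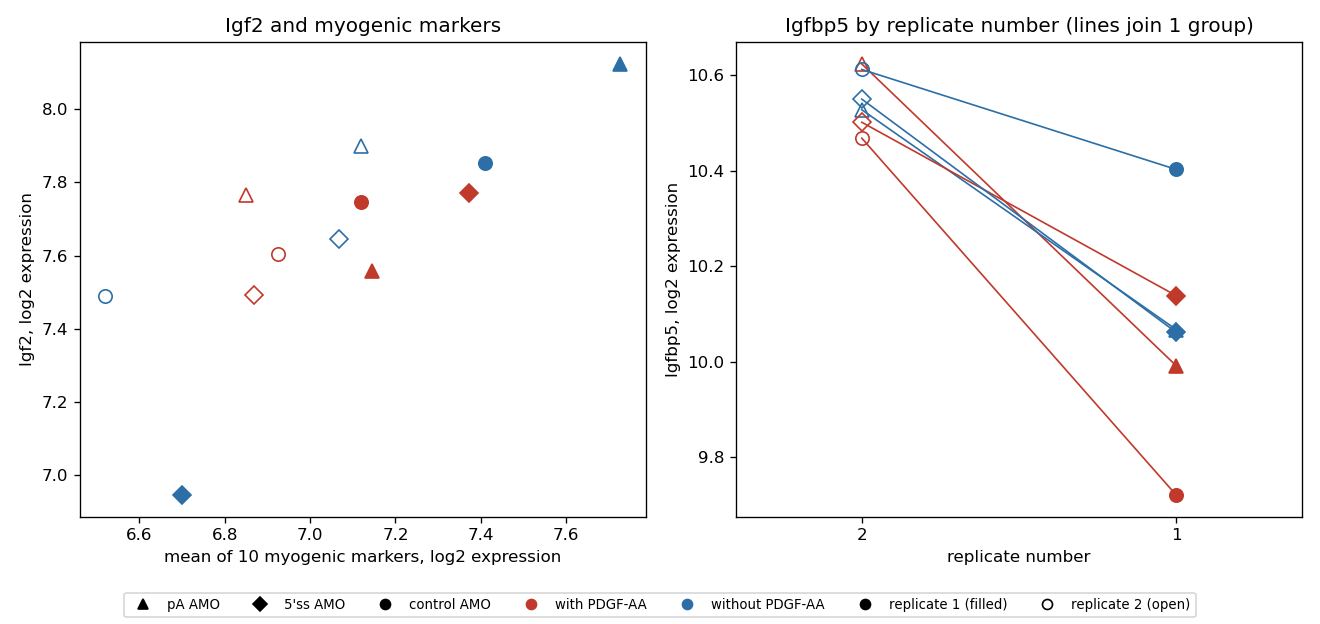
Left, log2 expression of Igf2 (y axis) against the mean of 10 myogenic markers (x axis) on the 12 arrays. Right, log2 expression of Igfbp5 (y axis) by replicate number (x axis), with lines joining the arrays of a group. Symbols give the AMO, red is with and blue without PDGF-AA, filled is replicate 1 and open replicate 2. Igf2 is highest where the myogenic mean is 7.73, and every group of Igfbp5 is higher at replicate 2.

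Across the 12 arrays Igf1 and Igfbp3 were alike, with a Pearson correlation of 0.88. With the macrophage and leukocyte mean Igf1 correlated at 0.69 and Igfbp3 at 0.70, while Igfbp6 was at -0.90 and Igf2r at -0.63, and the part of those markers was not tested. Of the other members, Igf1 correlated with Igfbp7 at 0.72 and with Igfbp6 at -0.73. All of these correlations are across the same 6 groups and the same pairs of replicates, so they carry the group differences given above. The genes most like Igf1, among clusters brighter than the median, were Dnajb11 (0.94), a chaperone of the endoplasmic reticulum, Col14a1 (0.92), a fibril-associated collagen gene, Pappa (0.92), Kcnj8 (0.91), a potassium channel gene, and Lhfp (0.90). The lowest were Lamb2, a laminin chain gene, and Sema3c, a semaphorin gene, each at -0.91. The genes most like Igfbp3 were Brd3 (0.96), Cdh11 (0.96), a mesenchymal cadherin gene, Boc (0.94), Itga11 (0.90), a collagen-binding integrin gene, and Rcn3 (0.90), and the lowest were Smim41 (-0.92) and Adgrd1 (-0.87).

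Pappa encodes pappalysin 1, the protease that cleaves IGFBP4 and releases IGFs. With pA AMO it was at 7.48 and 7.41 with PDGF-AA, against 7.95 and 7.91 without it. With 5'ss AMO it was at 7.66 and 8.28 with PDGF-AA, against 8.26 and 8.10 without it. With control AMO it was at 7.40 and 7.10 with PDGF-AA, against 7.90 and 7.71 without it. The arrays were lower with PDGF-AA and did not overlap in pA AMO and control AMO, and overlapped in 5'ss AMO, as for Igfbp3. Averaged over AMOs the difference was -0.42 (SE 0.106, limma adjusted p = 0.623), and 5'ss AMO minus control AMO was 0.55 (SE 0.129, limma adjusted p = 0.684). Without the array high in adipocyte markers these were -0.31 and 0.70, and within 5'ss AMO the PDGF-AA difference was 0.10, against -0.21 with all arrays.

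**Figure D5:**
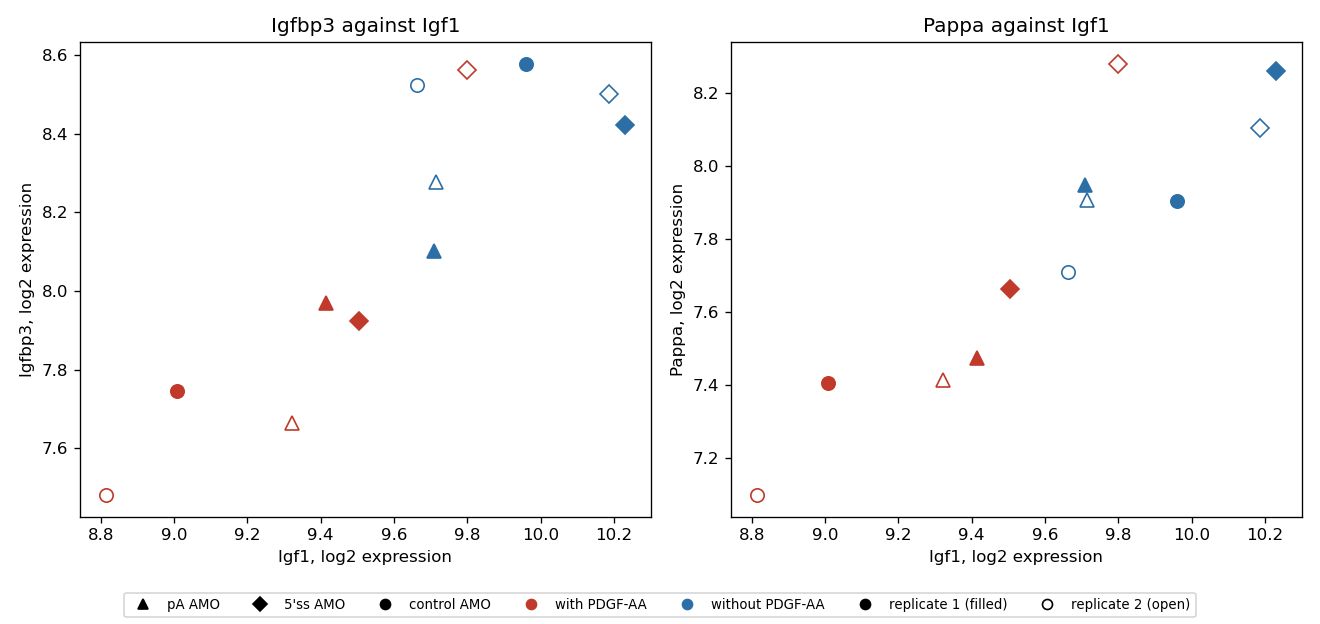
Log2 expression of Igfbp3 (left, y axis) and Pappa (right, y axis) against that of Igf1 (x axis) on the 12 arrays. Symbols give the AMO, red is with and blue without PDGF-AA, filled is replicate 1 and open replicate 2. Both genes are lowest with Igf1 in replicate 2 of control AMO with PDGF-AA, at 7.48 for Igfbp3 and 7.10 for Pappa.

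The wider pathway was followed in 6 lists, and 0 of their measured genes passed the threshold in the averaged PDGF-AA comparison or between averaged AMOs, in limma or with the replicate block. Of the regulators and proteases of IGF binding, 10 of 10 were measured, with 4 above 0 and 6 below 0 with PDGF-AA and a median of -0.043. Stc1, a stanniocalcin gene whose product inhibits pappalysin, was at 0.26 in that comparison, and Htra1, a serine protease gene, was at -0.19 in 5'ss AMO against control AMO. Of the insulin and IGF signalling genes 29 of 31 were measured, with 19 above 0 and 10 below 0 with PDGF-AA and a median of 0.014. The transcription factor genes Foxo3 and Foxo1, whose products are held out of the nucleus by IGF signalling, were at 0.12 and 0.14. In 5'ss AMO against control AMO the adaptor gene Irs3 was at -0.26 and the kinase gene Akt1 at -0.17.

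Growth hormone induces Igf1 in many tissues, and all 8 genes of its axis were measured, with 5 above 0 and 3 below 0 with PDGF-AA and a median of 0.0041. Socs3, a feedback inhibitor, was at 0.04 and Stat5a, a transducer, at -0.04. In 5'ss AMO against control AMO Stat5a was at 0.12 and Socs1 at -0.17. Of the imprinted genes, a class that holds Igf2 and Igf2r, 11 of 13 were measured, with 4 above 0 and 7 below 0 and a median of -0.042. Mest, an imprinted gene of mesoderm, was at -0.65 (SE 0.172, limma adjusted p = 0.666) with PDGF-AA, and at 0.37 in 5'ss AMO against control AMO, where Dlk1 was at -0.17. Zim1 was at -0.12 with PDGF-AA.

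With 5'ss AMO Mest was at 7.41 and 8.54 with PDGF-AA, against 8.61 and 8.73 without it, and with control AMO it was at 7.45 and 7.62 with PDGF-AA, against 8.57 and 8.19 without it. Replicate 2 of 5'ss AMO with PDGF-AA was, as for Igfbp3, far above replicate 1 of that group, and the arrays did not overlap within either AMO. Without that replicate 1, the array high in adipocyte markers, Mest was at -0.47 with PDGF-AA and at 0.65 in 5'ss AMO against control AMO. The CCN genes, matrix proteins that carry an IGF-binding-protein-like domain, were all measured (6 of 6), with 2 above 0 and 4 below 0 with PDGF-AA and a median of -0.050. Ccn5 was at -0.20 and Ccn3 at 0.08 there, and in 5'ss AMO against control AMO Ccn1 was at 0.17 and Ccn6 at -0.13. Of the IGF2 mRNA-binding proteins 2 of 3 were measured, with Igf2bp1 at 0.04 and Igf2bp3 at -0.011 with PDGF-AA, and at 0.11 and -0.13 in 5'ss AMO against control AMO.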

How the data were processed

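Gene expression was measured on 12 Affymetrix Mouse Gene 1.0 ST arrays from 100 ng of total RNA each. Precision is limited by the number of arrays. The deposited values are log2 expression values from RMA, which the authors ran in Affymetrix Expression Console. The submitters' processing notes name both tools without versions. RMA scales the arrays to each other, so a change shared by most genes would not be seen, and array medians lay between 6.04 and 6.23. The table holds 35556 clusters, of which the platform annotation gives 1 symbol to 21789, several to 1621 and does not list 12146. Of the 21789, 21698 matched RefSeq and 0 symbols changed.

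With 1 mean per group, 6 in all, the 12 arrays were fitted in limma 3.58.1 in R 4.3.3 (6 residual degrees of freedom), with Benjamini-Hochberg adjustment over 21789 clusters and a threshold of 0.05. It was tested on simulated data. Same-numbered arrays deviated together from their group means in 15 of 15 pairs of groups (correlations of 0.197 to 0.613, criterion 0.1), so by this check of the data the replicate numbers pair the samples, and a fit with the number as a block is given where it changes a call. The p-values measure the spread between these arrays only. Alternatives were that block, a filter on clusters under the 40% mark, every cluster in place of the named ones, quantile normalization repeated, centring on array medians, trended and robust moderation, and leaving out each array.

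The members and lists were chosen with earlier results of these data known. All 10 members are named. Of each list of other genes of the pathway the text names the 2 with the smallest p in the averaged PDGF-AA and 5'ss AMO against control AMO comparisons, and for likeness the 5 highest and 2 lowest Pearson correlations with Igf1 and Igfbp3. Other markers were named after their values were seen. Promoters are from RefSeq (GRCm38.p6), which the files do not name as their build.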

Additional observations from a re-analysis of the deposited data

Results flagged for a closer look

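In some members the difference from control AMO ran in opposite directions with and without PDGF-AA in both pairs of same-numbered arrays. For each reversal the interaction in limma had an adjusted p of 1.0 after rounding, so none passed. It is built from the PDGF-AA differences known when the family was proposed and is a description only. Igfbp3 in pA AMO minus control AMO was at 0.22 and 0.18 with PDGF-AA, against -0.47 and -0.25 without it, a difference of 0.57 between the effects. Igfbp3 in 5'ss AMO minus control AMO was at 0.18 and 1.08 with PDGF-AA, against -0.15 and -0.02 without it, a difference of 0.72. Igfbp4 in 5'ss AMO minus control AMO was at 0.30 and 0.07 with PDGF-AA, against -0.07 and -0.07 without it, a difference of 0.26. Igfbp5 in pA AMO minus control AMO was at 0.27 and 0.16 with PDGF-AA, against -0.34 and -0.08 without it, a difference of 0.42. Igfbp5 in 5'ss AMO minus control AMO was at 0.42 and 0.03 with PDGF-AA, against -0.34 and -0.06 without it, a difference of 0.43. These pairs share their control arrays, and groups of 2 arrays are too small for a test of outlying arrays.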

How the results depend on the processing

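RMA compresses signals near background. In the averaged PDGF-AA comparison 0 clusters of the array passed, against 21 with the replicate block, which the pairing of the numbers allows, and 39 with trended and robust moderation. Adding the omission of each array to that block, an alternative chosen after seeing the data, gave 0 to 24 clusters, with 24 without replicate 2 of 5'ss AMO with PDGF-AA and at most 1 without any other array. Within control AMO trended and robust moderation gave 13 clusters, against 0. For 5'ss AMO against control AMO, averaged over doses, it gave 1 member (Igf1), against 0, and the adjusted p of Igf1 over the alternatives was 0.0298 to 0.992. The cause was not tested. The block changed no call of a member between AMOs, and leaving out each array in turn gave 0 members there. Igf1 in pA AMO against control AMO without PDGF-AA was -0.10, and 0.050 without replicate 1 of control AMO without PDGF-AA, with a range of -0.25 to 0.050. Of the 40 PDGF-AA differences of members, 16 crossed 0 when some array was left out, the largest being Igf2 within 5'ss AMO (0.34), and 22 of the 70 differences between AMOs did so, up to a size of 0.23. The averaged PDGF-AA difference of Igf1 was -0.65 to -0.55 and that of Igfbp3 -0.62 to -0.40 over leaving out each array.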
